A study of Mus musculus with 30 samples.

Results

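Gene expression in the wild-type mouse brain was compared with that in 4 other organs of wild-type mice. The series holds 30 RNA-seq libraries, and the comparison used 15 of them, chosen by their genotype label alone: 3 brain libraries and 12 others, 3 each from kidney, liver, spleen and muscle (the quadriceps femoris). All 15 came from adult C57BL/6 animals whose genotype is labelled control. The other 15 libraries of the series came from animals heterozygous for Ctcf, a gene for a DNA-binding protein that shapes chromosome folding, and were used here only as an alternative set of mice. The design text names 3 wild-type mice for the 5 tissues, but the labels do not tie a brain library to a kidney library of the same mouse, so p-values measure the spread between these libraries. Total RNA was taken from pieces of less than 30 mg. Which part of the brain those pieces came from is not given in the sources used here.

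The brain is built from neurons, which signal through synapses, and from glia: astrocytes, which clear transmitters and supply metabolites, oligodendrocytes, which wrap axons in myelin, and microglia, the resident macrophages. Its vessels carry the blood-brain barrier, and the healthy tissue holds few lymphocytes. Many proteins that all cells need come in a general form and a neuronal form encoded by a second gene, so that a brain is told from other organs both by genes that are silent elsewhere and by the member of a gene family that it uses. In bulk tissue, fewer cells of a type and less RNA per cell cannot be told apart.

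The 3 brain libraries held 62312416, 72726210 and 49819907 assigned counts, within a range of 49819907 to 103746605 over the 15 libraries. Levels are given as CPM, counts scaled to a common library size after TMM scaling, and as CPM per kilobase of exon (RPKM) where genes are compared with each other. Log2 fold changes are of brain over the mean of the 4 other tissues on the log scale, with standard errors (SE) and Benjamini-Hochberg adjusted p-values from edgeR's quasi-likelihood test. A gene is called brain-enriched below when it was higher in brain at an adjusted p under 0.05 against each of the 4 tissues and its mean brain level was at least 4 times the mean of each. Brain-depleted is the mirror image. The fold given for a gene is that over the highest, or below the lowest, of the 4 other tissue means, with a mean below 3 counts per library raised to that floor. Counting did not use strand, so values are uncertain for genes whose exons overlap another gene, as 29.7% of the enriched and 30.1% of the depleted genes did.

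Liver replicate 3, brain replicate 3 and brain replicate 2 stood apart in ways that touch these values. In liver replicate 3, the transcripts of nearly every strongly expressed brain-enriched gene were present at a low, even level. Of 783 brain-enriched genes with a brain mean of at least 50 CPM, 782 were found there at 0.5% or more of their brain level, the median was 1.12%, and 0 genes were under 0.1%. In each of the other 11 libraries outside brain, between 175 and 349 of the 783 genes were under 0.1%, with 317 and 293 in liver replicates 1 and 2. For the converse, 18 kidney, 121 liver, 80 muscle and 7 spleen genes stood in the brain libraries at medians between 0.00209% and 0.057% of their source level. These genes were chosen as far lower in every remaining tissue, brain included, so the 2 directions cannot be compared on equal terms. Where leaving out liver replicate 3 moved a named gene's fold by over 1.5 times, both values are given. Long genes tended to be high in brain replicate 3 and low in brain replicate 2, where some hormone and activity-regulated genes were also high, as described at the end.

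**Figure D1:**
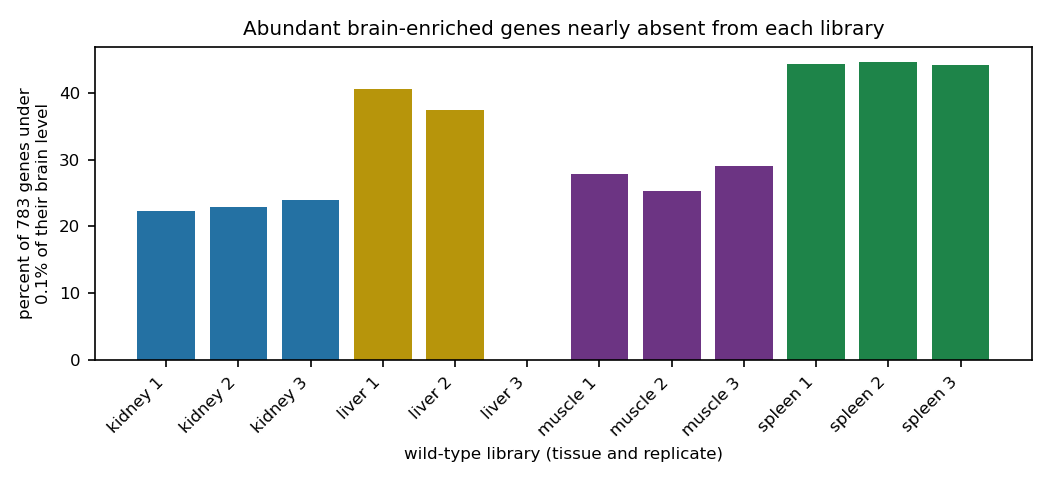
Share of 783 strongly expressed brain-enriched genes (percent, vertical axis) that stood under 0.1% of their brain level in each of the 12 libraries from kidney, liver, muscle and spleen (bars). Liver replicate 3 has no bar because 0 of the 783 genes were that low there, against 22.3% to 44.6% in the other 11 libraries.

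Brain differed from the mean of the other tissues in 16791 of 22933 genes tested. Of all genes tested, 9063 (39.5%) were higher and 7728 (33.7%) were lower in brain. With plain total-count scaling the split was 11803 higher and 4925 lower, and the median gene stood 0.57 higher in brain on the log2 scale, compared with -0.02 under TMM. The brain-enriched rule called 2551 genes (11.1% of those tested) and the brain-depleted rule 319 (1.39%). All 3 brain libraries were above all 12 others in 2550 of the 2551 enriched genes, and below all 12 in 315 of the 319 depleted genes, compared with 21.3% and 10.5% of all genes tested. The rule itself asks for such separation.

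The enriched genes supplied 26.9% ± 0.433 (SD, n = 3) of all brain counts, at 26.7%, 26.6% and 27.4% in the 3 libraries. They supplied 0.865% ± 0.0278 of kidney counts, 0.635% ± 0.0687 of spleen counts, 0.311% ± 0.00952 of muscle counts and 0.27% ± 0.0893 of liver counts (n = 3 each). The highest of the 12 other libraries was a kidney library at 0.896%, and no library overlapped with brain. The depleted genes supplied 0.0903% ± 0.00193 of brain counts, against tissue means from 0.559% in muscle to 4.13% in spleen. Brain also spread its counts over more genes. At 1 RPKM or more it showed 12093 ± 49.4 genes, kidney 11733, spleen 11312, liver 10943 and muscle 10637. Its 10 most counted genes took 6.49% of the library, compared with 12.5% in kidney, 23.6% in liver and 28.4% in muscle. Spleen, with a mean of 8.74%, overlapped with brain on this measure, since its replicate 3 stood at 5.79% and the brain libraries between 6.09% and 7.00%.

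**Figure D2:**
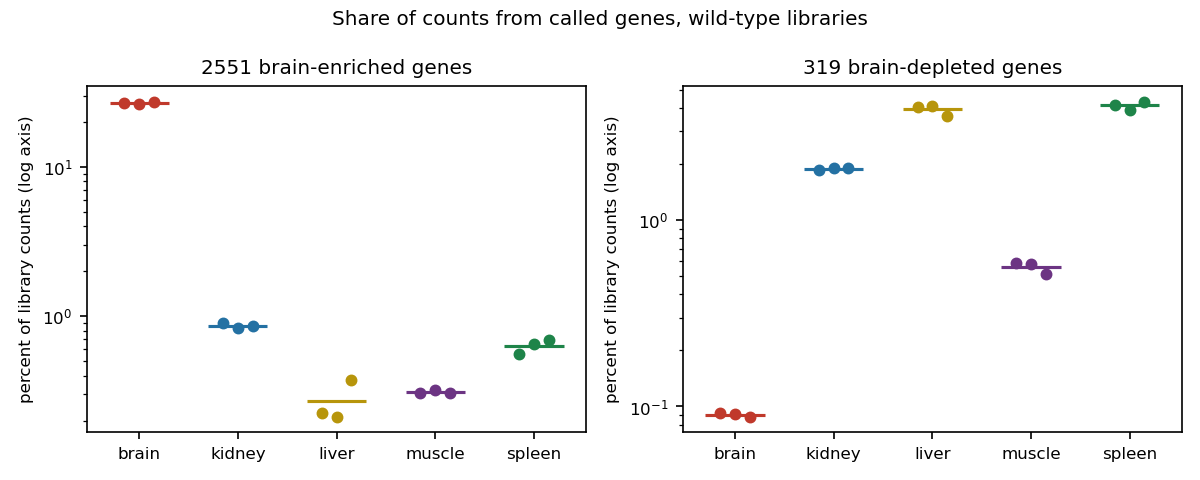
Percent of each library's counts (log axis) that came from the 2551 brain-enriched genes (left) and from the 319 brain-depleted genes (right), by tissue; points are libraries and lines are means of 3. Brain sits near 27% on the left and near 0.09% on the right, with no overlap with any other library in either panel.

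The enriched genes had larger folds and were longer than the depleted ones. Among the enriched genes 519 had a fold over 100, 1103 a fold of 10 to 100 and 929 a fold under 10, with a median of 16.5. Among the depleted genes the median fold was 5.93, 57 had a fold over 10 and 0 had one over 100. Protein-coding genes that were brain-enriched spanned a median of 34.1 kb of the genome, compared with 22.7 kb in all protein-coding genes tested and 15.6 kb in the depleted ones. Spans over 100 kb were found in 29.5% of the enriched, 13.8% of all and 7.75% of the depleted protein-coding genes. Chromosome X carried 145 of the enriched genes (5.68%, against 3.19% of all tested) and 3 of the depleted ones. The tissue closest to brain among the enriched genes was most often kidney, in 873 genes (34.2%, against 21.4% of all tested), and least often spleen, in 411 (16.1%, against 33.4%). Spleen was the tissue with the highest level for 152 of the 319 depleted genes (47.6%, against the same 33.4%).

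By level per kilobase, the leading brain-enriched gene was Ckb, which encodes the brain form of creatine kinase, an enzyme that buffers ATP. It lies on chromosome 12 (GRCm38, 111669355 to 111672338, minus strand) and measured 1147, 1219 and 1169 CPM in brain. The 12 other libraries ran from 10.6 to 191 CPM with a median of 19.6, so they did not overlap with brain, and the highest were from kidney. Ckb was 6.77-fold above kidney, with a log2 fold change of 5.22 ± 0.14 (SE) over the mean of the 4 tissues and an adjusted p of 2.39e-13. Its brain level was 797 ± 25.1 RPKM (SD, n = 3). Nrgn, a calmodulin-binding protein of dendrites on chromosome 9, followed at 643 ± 32.7 RPKM. It measured 917, 898 and 988 CPM in brain and between 1.27 and 55.4 CPM elsewhere, where spleen was highest, and its log2 fold change was 7.23 ± 0.40 (adjusted p = 4.12e-10).

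The genes next in level included proteins of the axon and its cytoskeleton and secreted proteins. Sparcl1, a matrix protein released by astrocytes, stood at 548 ± 40.9 RPKM but only 5.98-fold above muscle. Ptgds, the prostaglandin D synthase of meninges and choroid plexus, stood at 456 ± 30.7 RPKM and measured 769, 696 and 793 CPM. The other libraries had at most 14.7 CPM of Ptgds, in liver replicate 3, and the fold was 114, or 147 without that library. The tubulins Tuba1a (448 RPKM) and Tubb4a (323 RPKM) build neuronal and glial microtubules. Kif5a (383 RPKM), a kinesin motor of axonal transport, measured 2388, 2152 and 2703 CPM in brain and at most 9.41 CPM as a mean elsewhere, in liver (257-fold, or 725-fold without liver replicate 3). Ncdn, Aplp1, Stmn3 and Camk2n1 stood between 309 and 340 RPKM. In each of these genes the 3 brain libraries lay above the 12 others.

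The largest folds belonged to genes of moderate level that were close to 0 elsewhere. Hs3st4, which encodes an enzyme that modifies heparan sulfate on neurons, measured 45.4, 44.7 and 43.8 CPM in brain. Its median over the other 12 libraries was 0, the highest was 0.166 CPM in liver replicate 3, and the fold was at least 614. Nell1 measured 44.1, 46.5 and 45.9 CPM and was 518-fold above liver. Cpne6, a calcium-dependent membrane-binding protein, measured 131, 175 and 135 CPM and was 514-fold above liver, or 1458-fold without liver replicate 3. Srrm3, a regulator of neuronal microexons, was at least 506-fold above the other tissues, and Slc45a1 at least 500-fold. The synaptic adhesion gene Nlgn1, the calcium-channel-associated Fam155a and the GABA-A receptor subunit Gabra5 followed at 476-fold, 454-fold and 450-fold, and Fam155a at least 739-fold without liver replicate 3. Crtac1 was 460-fold and Brinp1 429-fold above liver (2263-fold for Brinp1 without liver replicate 3), while Epha10 and Otud7a were at least 439-fold and at least 432-fold above it. Ranked again without liver replicate 3, a step added after the data were seen, the largest folds belonged to Cplx1, Gria1, Hpca and other synaptic genes, among them Grin2b, Gria2 and Rab3c.

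**Figure D3:**
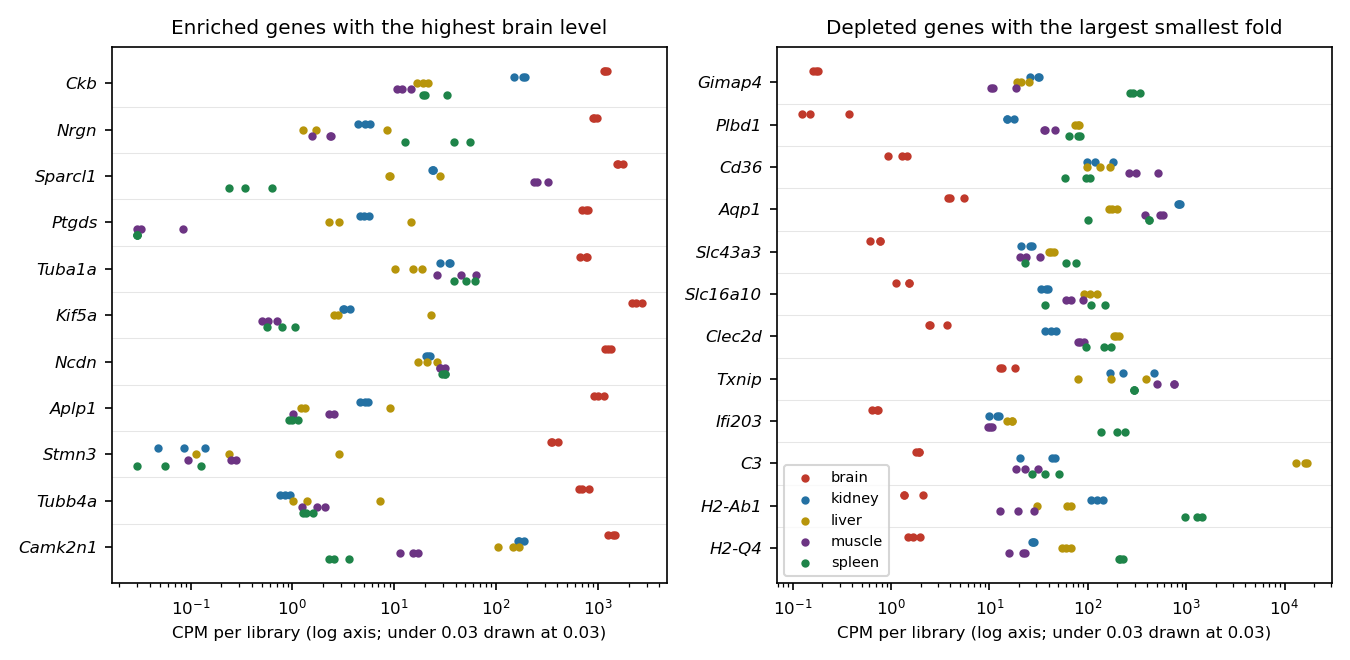
CPM in each of the 15 libraries (log axis; values under 0.03 drawn at 0.03) for 11 of the 12 brain-enriched genes with the highest level per kilobase (left) and the 12 brain-depleted genes with the largest fold below the lowest other tissue (right); each point is 1 library, coloured by tissue. The brain points lie to one side of all 12 others for each gene.

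Genes of neuronal structure and of transmitter release were nearly all enriched. Of 25 genes of neuron structure, 22 were enriched and all 25 higher in brain, with a median log2 fold change of 9.1. The exceptions were Thy1, which spleen carried at 165 CPM, Mapt, which encodes the microtubule protein tau and stood at 119 CPM in muscle, and Ank3 (132 CPM in muscle). Of 30 genes of synaptic release, 28 were enriched and 30 higher (median 8.80). All 22933 genes tested had a median of -0.02. Snap25, the plasma-membrane SNARE protein that drives vesicle fusion, measured 1594, 1506 and 2087 CPM in brain. In the 12 other libraries its median was 0.0248 CPM and its highest value was 16.4 CPM, in liver replicate 3. Snap25 was 297-fold above liver with that library and 3200-fold without it (log2 fold change 15.33 ± 0.89, adjusted p = 4.97e-09).

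The same single library set the fold of other release genes. Cplx1, a complexin that clamps vesicles before fusion, measured 464, 485 and 490 CPM and was 316-fold above liver, or at least 6532-fold above any tissue without liver replicate 3. Syt1, the calcium sensor of fusion, behaved otherwise. It measured 984, 958 and 1135 CPM in brain, and liver held a mean of 25.2 CPM, which was 23.4 CPM in replicates 1 and 2 alone. Vamp2, the vesicle SNARE, stood at 841, 929 and 944 CPM and was 11.5-fold above spleen. The 2 release genes outside the enriched set were Vamp1, at 149, 156 and 140 CPM in brain and 69.2 CPM in spleen, and Syn3, the least abundant synapsin.

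Promoters of 7 enriched genes held an exact copy of the core of the RE1 element, the DNA site read by REST, a factor known to silence neuronal genes in other tissues. The motif searched was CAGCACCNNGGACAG, on both strands, in RefSeq promoter windows (GRCm38.p6) from 250 bases before to 50 bases after each gene's start. Such copies were rare everywhere: 7 of the 1730 enriched genes with a window held one (0.405%), 0 of 233 depleted genes, and 9 of 14865 tested genes (0.0605%). With up to 1 mismatch in the fixed letters the counts were 22 (1.27%), 0 and 41 (0.276%). With up to 2 mismatches they were 75 (4.34%), 9 (3.86%) and 388 (2.61%), so the depleted share was then close to the enriched one. The copies in 6 of these genes are shown, because brain-enriched genes of unrelated function carry the same core in different flanking sequence, with the core in capitals and the strand of the motif read 5′ to 3′:
Sptbn4, chr7:27396262-27396316, plus strand: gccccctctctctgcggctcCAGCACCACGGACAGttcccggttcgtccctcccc
Fam163b, chr2:27142545-27142599, minus strand: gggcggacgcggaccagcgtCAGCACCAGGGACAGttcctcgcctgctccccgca
Ogdhl, chr14:32321896-32321950, plus strand: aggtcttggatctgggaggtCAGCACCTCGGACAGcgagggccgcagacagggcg
Osbp2, chr11:3774773-3774827, plus strand: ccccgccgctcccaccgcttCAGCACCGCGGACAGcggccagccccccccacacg
Hrh3, chr2:180104556-180104610, plus strand: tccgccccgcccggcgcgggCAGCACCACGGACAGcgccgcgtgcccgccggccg
Fbll1, chr11:35799038-35799092, plus strand: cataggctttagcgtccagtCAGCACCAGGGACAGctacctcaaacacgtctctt

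The centres of these cores lay 91, 95, 96, 132, 176 and 181 bases before the start site in the order shown. Sptbn4, a spectrin of the axon initial segment, measured 118, 129 and 88.3 CPM in brain and at most 0.763 CPM as a mean elsewhere. Hrh3, a presynaptic histamine receptor, measured 46.8, 52.6 and 43.5 CPM in brain, and no other tissue mean passed 0.182 CPM. Ogdhl was the least restricted of the 6, at 107, 103 and 88.7 CPM in brain and 8.64 CPM in kidney. Fam163b measured 102, 111 and 108 CPM, Osbp2 58.8, 63.7 and 62.5 CPM, and Fbll1 27.8, 30.2 and 28.1 CPM. The seventh gene was Ttc9b, whose core was centred 25 bases after the start site. A match describes the letters in the window and says nothing of whether a factor was bound.

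Receptors for the main transmitters were nearly all enriched. Of 18 ionotropic glutamate receptor genes, which encode the ion channels of fast excitation, 17 were enriched (median 9.53). Gria1 measured 326, 334 and 333 CPM in brain, and outside brain its median was 0.00399 CPM and its highest value 3.46 CPM, in liver replicate 3. The fold was 277 with and 4323 without that library. The exception was Grin3b, at 0.419, 0.349 and 0.245 CPM in brain and 1.03 CPM in muscle, which was lower in brain (log2 fold change -0.82 ± 0.30, adjusted p = 0.0214). That call was lost without brain replicate 2, without brain replicate 3, with total-count scaling and with kidney or muscle left out. Of 21 tested GABA-A and glycine receptor genes, the channels of fast inhibition, 17 were enriched (median 9.59). The rho and pi subunits Gabrr1, Gabrr2 and Gabrp and the epsilon subunit Gabre were not enriched, and each had a brain mean below 3 CPM. Of 31 metabotropic receptors 29 were enriched (median 9.28), among them Gabbr1 at 607, 631 and 581 CPM. Adora2a (45.1, 41.2 and 28.3 CPM) was kept out by spleen at 15.4 CPM, and Drd4 by its low level.

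Postsynaptic scaffold genes were enriched in 19 of 25 cases, and all 25 were higher in brain (median 7.2). Dlg4, which encodes the scaffold protein PSD-95, measured 630, 649 and 645 CPM in brain and at most 7.28 CPM as a mean elsewhere. Muscle kept 3 of the other 6 out of the enriched set. The kinase subunit Camk2a measured 1839, 1703 and 2201 CPM in brain but 639 CPM in muscle, Camk2b stood at 283 CPM in muscle, and Homer1 at 80.5 CPM. Baiap2 and Shank2 were highest outside brain in liver. Gphn, the gephyrin gene, which anchors inhibitory receptors and also serves cofactor synthesis, stood at 59.1, 57.1 and 62.3 CPM in brain and 92.6 CPM in liver.

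Ion channels were largely enriched, and those outside the enriched set were often muscle channels. Of 14 sodium channel genes 9 were enriched and 13 higher in brain. Scn2a measured 177, 157 and 226 CPM and Scn8a 184, 170 and 212 CPM, with no other tissue mean above 1.14 CPM in either. The auxiliary subunit Scn4b was higher in muscle, at a mean of 709 CPM, than in brain. Scn4a, the muscle channel, was at most 0.034 CPM in brain and 463 CPM in muscle. Of 32 potassium channel genes 21 were enriched (median 7.19). Kcnc1 and Kcnc4 were kept out by muscle at 132 and 205 CPM, while Kcnq1 and Kcna7 were lower in brain. The number lower fell from 2 to 1 without spleen replicate 1 and with kidney or muscle left out. Of 24 calcium channel genes 17 were enriched (median 6.12), and Cacna1s, Cacng1 and Cacng6, the subunits of the muscle channel, had brain means below 1 CPM beside 790.5, 478 and 291 CPM in muscle. The calls of Cacna1e and Cacna1g rested on the spleen libraries: the first was lost without spleen replicate 1 and the second without spleen replicate 3.

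Secreted peptides gave the highest median of the neuronal lists. Of 30 neuropeptide and granin genes, 28 were enriched and 30 higher in brain, with a median log2 fold change of 10.14. Sst, which encodes somatostatin, a marker of a class of inhibitory neurons, measured 150, 167 and 163 CPM, and at 267 ± 15.3 RPKM it had the highest level per kilobase of the list. Its fold was 330 above liver, and at least 2178 without liver replicate 3. Peptides made by small groups of hypothalamic neurons were counted in each brain library: Hcrt at 7.66, 9.56 and 6.73 CPM, Avp at 10.4, 11.6 and 13 CPM, Oxt at 12.7, 12.2 and 17.8 CPM, and Pmch at 13.6, 10.5 and 7.71 CPM. The exceptions were Bdnf, which kidney held at 4.89 CPM, and Tac2, which spleen held at 2.31 CPM.

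Transmitter synthesis and uptake genes were enriched in 14 of 23 cases. The vesicular glutamate transporter Slc17a7, typical of cortex, measured 723, 793 and 806 CPM, and Slc17a6, typical of thalamus and brainstem, 60.2, 57.7 and 55.8 CPM. The GABA-synthesising enzymes Gad1 (305, 308 and 313 CPM) and Gad2 (181, 167 and 183 CPM) were at most 5.24 CPM and below 2 CPM in the other libraries. Genes of the scattered aminergic and cholinergic neurons were low but enriched, with Th at 9.58, 12.3 and 6.46 CPM, Tph2 at 1.34, 2.7 and 1.17 CPM and Chat at 4.23, 3.72 and 3.43 CPM. The choline and acetylcholine transporters Slc5a7 and Slc18a3 had tissue means of 0 in kidney, liver, muscle and spleen, and were at least 83.7-fold and at least 31.6-fold higher in brain. Glul, which makes glutamine from glutamate, was expressed in kidney at 699 CPM and was not enriched.

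Astrocyte genes were high but often shared. Of 20 genes 10 were enriched and 19 higher in brain (median 5.36). Slc1a2, the main glutamate transporter, measured 2052, 1651 and 1908 CPM in brain, and its highest value elsewhere was 125 CPM, in liver replicate 2. All 3 liver libraries held it, with a mean of 119 CPM. Gfap, the astrocyte intermediate filament, measured 200, 230 and 188 CPM and was 13.1-fold above spleen. Those outside the enriched set included Apoe, at 1132, 1191 and 1170 CPM in brain and 27442 CPM in liver. The water channel Aqp4 (108, 115 and 109 CPM) stood at 81.5 CPM in kidney, and the folate enzyme Aldh1l1, often used to mark astrocytes, did not pass the test against the mean of the other tissues (log2 fold change -0.02 ± 0.20, adjusted p = 0.959).

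Myelin genes were more restricted, with 14 of 20 oligodendrocyte genes enriched and 19 higher (median 7.88). Mbp, on chromosome 18, measured 2417, 2598 and 2081 CPM in brain and between 2.11 and 67.2 CPM elsewhere, where spleen was highest. Its log2 fold change was 6.84 ± 0.42 (adjusted p = 1.43e-09). Mobp, a myelin protein of the central nervous system, measured 951, 981 and 801 CPM and had a median of 0 in the 12 other libraries. Its fold of 361 became 2631 without liver replicate 3. Cnp was kept out by spleen at 201 CPM, and Trf, which encodes transferrin, by liver at 1956 CPM. Of 10 genes of oligodendrocyte precursors, 7 were enriched, and Pdgfra, Cspg4 and Vcan, which mesenchymal cells and pericytes also express, were not.

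Microglial genes were often higher in brain, but were enriched at about the share of all genes. Of 16 genes 2 were enriched, near the 11.1% of all genes tested. Against the mean of the other tissues 12 were higher and 0 lower in brain (median 1.71). The shares of all genes were 39.5% and 33.7%. With muscle left out of the comparison 5 were lower in brain, and with spleen left out 5 were enriched. P2ry12, a purinergic receptor of resting microglia, measured 29.9, 25 and 32.1 CPM in brain and between 0.169 and 3.77 CPM elsewhere, 8.33-fold above spleen. Trem2, a lipid-sensing receptor, was 8.25-fold above liver. Cx3cr1 measured 46.4, 38 and 54.4 CPM but was held at 17.2 CPM by spleen, and Tmem119, at 19.1, 24 and 17.6 CPM, met 16.2 CPM in kidney. The complement genes C1qa, C1qb and C1qc did not pass the test. Summed over the list, brain held 530.0 to 558 CPM and spleen 991 to 1265.5 CPM.

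Genes of brain endothelium were counted at low levels. The list holds barrier markers and also genes that endothelium of other organs expresses. Of 15, 1 was enriched (11.1% of all genes tested were), 8 were higher and 5 lower in brain (39.5% and 33.7% of all). The enriched gene was Slco1c1, a thyroid hormone transporter, at 41.1, 44.1 and 33.5 CPM and 237-fold above liver. Cldn5, the tight-junction protein, measured 20.9, 13 and 15.6 CPM in brain and 27.8 CPM in muscle. The list summed to 248 to 264 CPM in brain, which was below the 665 to 722 CPM of kidney and the 795 to 861 CPM of muscle. These sums do not compare barrier markers alone. Of 15 choroid plexus and ependymal genes 7 were enriched, and the leading one by level, Ttr, was not, since its 712, 832 and 503 CPM in brain stood beside 12290 CPM in liver.

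Transcription factors of both forebrain and hindbrain were counted in brain. Of 20 forebrain factors 13 were enriched, and all 20 were higher in brain. Tbr1, a factor of deep cortical neurons, measured 64.8, 57.3 and 68.3 CPM, and the striatal and interneuron factor Dlx1 24.5, 26.3 and 27.6 CPM. Emx1 and Emx2 stayed out because kidney held them at 46.5 and 34.8 CPM. Of 19 tested hindbrain and midbrain factors 9 were enriched. Zic1, expressed in cerebellum and in septum and thalamus, measured 31.2, 26.4 and 35.6 CPM, but En1 and En2 had brain means below 1 CPM. Neuronal RNA-binding proteins were enriched in 12 of 20 genes, with Rbfox3, the antigen NeuN, at 184, 192 and 212 CPM. Rbfox1 was not among them, at 193, 175 and 214 CPM in brain and 381 CPM in muscle.

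**Figure D4:**
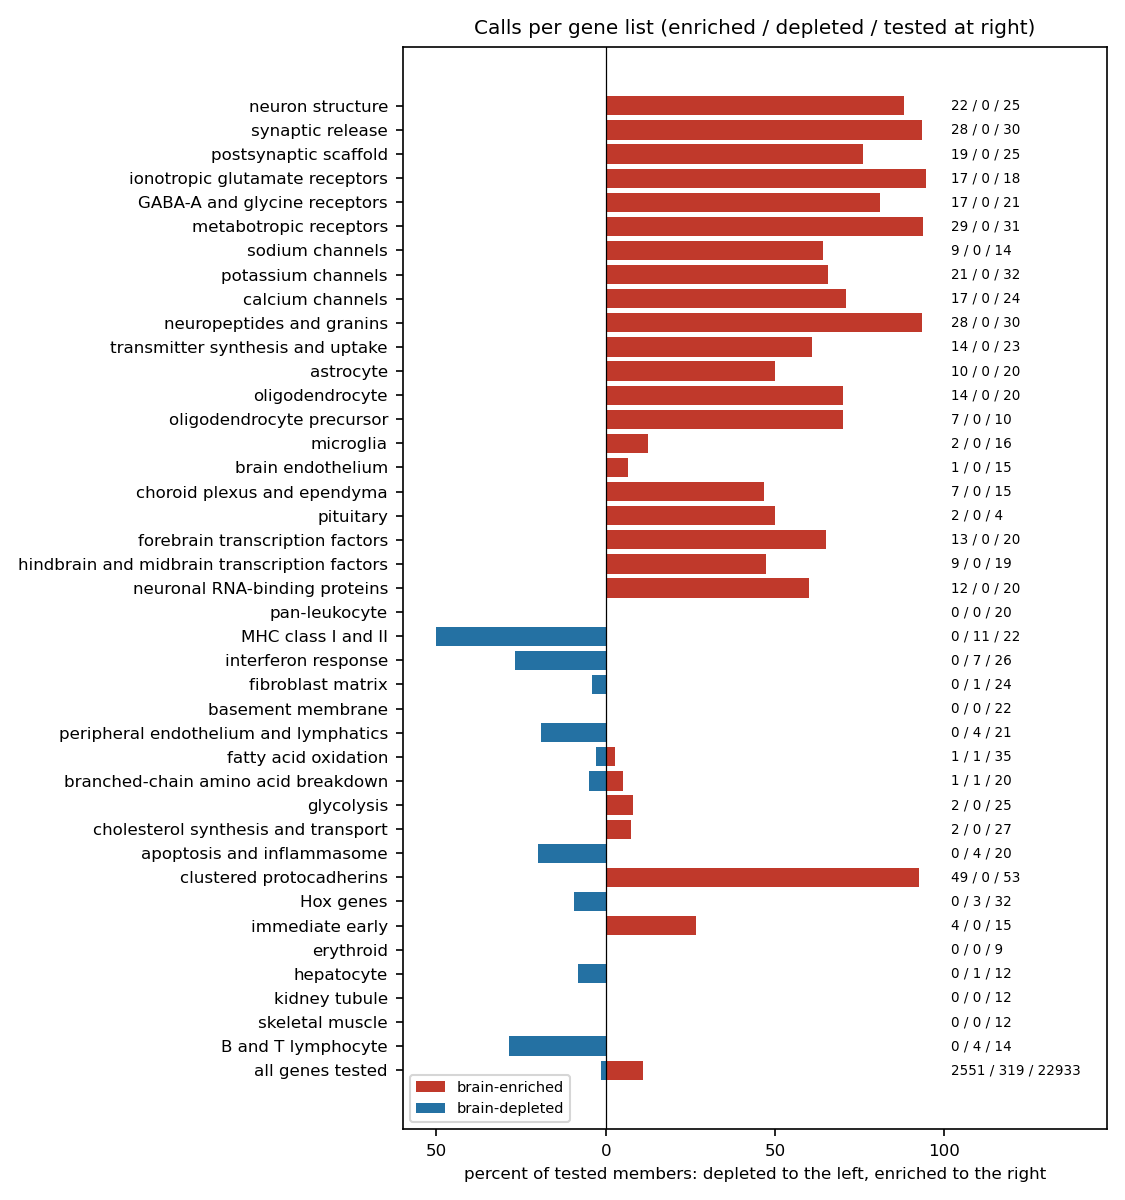
Percent of the tested members of each gene list that were brain-enriched (bars to the right) or brain-depleted (bars to the left), with the counts beside them and all genes tested at the bottom. Some neuronal lists are over 80% enriched and others lower, such as transmitter synthesis and uptake with 14 of 23. The MHC, interferon and cell death lists have depleted members and no enriched ones. Of all genes tested, 11.1% were enriched and 1.39% depleted.

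Among gene families taken by symbol, those of neuronal contact and signalling held the largest enriched shares, beside the 11.1% of all genes. All 13 tested contactin genes, which encode adhesion proteins of axons and the node of Ranvier, were enriched. Cntn1 measured 251, 233 and 278 CPM and was 235-fold above kidney, and Cntnap1 was 60.7-fold above it. Of 65 tested protocadherins 57 were enriched. For the clustered protocadherins alone, cell-surface proteins whose combinations mark single neurons, the count was 49 of 53, and all 53 were higher in brain (median 5.76). Members of the alpha cluster and of the gamma cluster share exons. Reads on shared exons were dropped or may be assigned to 1 member, so the values of those members are uncertain. With overlapping genes left out of the fit, 16 clustered protocadherins were enriched and 18 higher. Pcdh9, outside the clusters, measured 80.6, 69 and 88.6 CPM. Ionotropic glutamate receptors by symbol gave 18 of 19, synaptotagmins 13 of 17, GABA-A subunits 13 of 17, the Slitrk and related leucine-rich proteins 14 of 19, potassium channels 48 of 89, and ephrins with their receptors 12 of 22. Sox factors gave 10 of 20, and Sox2, a factor of neural stem cells and astrocytes, measured 29.8, 24.5 and 30.9 CPM.

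Large general families ranged from 0 enriched members to 25%. Zinc finger proteins gave 19 enriched of 369 (5.15%), with 1 depleted, Zfp36, a protein that destabilises inflammatory mRNAs. Solute carriers gave 42 of 333 (12.6%), near the 11.1% of all genes tested. Of them 5 (1.5%) were depleted, near the 1.39% of all genes: Slc40a1, Slc43a1, Slc43a3, Slc28a2 and Slc16a10. Slc12a5, the chloride exporter of mature neurons, measured 436, 451 and 440 CPM and was 111-fold above liver, or 181-fold without liver replicate 3. Of 28 tested keratins 7 were enriched (25%), among them Krt9 at 7.01, 8.03 and 7.13 CPM and Krt77 at 7.16, 7.29 and 6.86 CPM, genes better known from skin. Krt9 was at least 102-fold and Krt77 at least 97.7-fold above the other tissues. In the 31 integrins, 11 laminins, 22 glutathione transferases, 12 toll-like receptors, 10 annexins, 21 aldehyde dehydrogenases and 47 ATP-binding cassette transporters tested, 0 genes were enriched and 0 depleted. With 1.39% of all genes depleted, 0 depleted members in families of this size is near the share of all genes.

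Many general cell functions ran on a different family member in brain. Among plasma-membrane SNAREs, Snap25 made up 96.8% ± 0.645 (SD, n = 3) of the summed RPKM of its set in brain and Snap23 0.686%. In the other tissues Snap23 took between 36.7% and 65.0%, and Snap25 0.0143% in kidney, 0.0063% in muscle and 0% in spleen. In liver the Snap25 share was 0.343% in replicates 1 and 2 and 10.1% in replicate 3. Snap23 was itself brain-depleted, at 7.66, 7.47 and 7.68 CPM in brain and between 32.8 and 74.7 CPM elsewhere (log2 fold change -2.77 ± 0.10, adjusted p = 4.81e-12). The same exchange was seen at the vesicle, where Vamp8, a SNARE of secretory and immune cells, was depleted (7.86, 7.99 and 8.26 CPM, 6.16-fold below muscle).

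Metabolic enzymes and motors gave further cases. Eno2, the neuronal enolase, made up 58.3% ± 0.896 of enolase RPKM in brain and at most 0.377% in the mean of any other tissue. Aldoc took 41.8% ± 2.74 of aldolase, with 1.79% in spleen the next highest, but Aldoa remained the larger member in brain at 58.2%. Kif5a and Kif5c together took 95.6% ± 0.349 of the conventional kinesin heavy chains, against 8.92% in liver replicates 1 and 2, 6.90% in kidney and less in muscle and spleen, while liver replicate 3 stood at 41.9%. Cpt1c, a brain relative of the carnitine transferases, took 65.3% ± 2.67 of its set and at most 6.81% elsewhere, and Uchl1 took 93.1% ± 0.355 of its set and 12.7% in kidney.

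Other sets that textbooks call brain types were shared. Ckb made up 99.99% of cytosolic creatine kinase in brain, but also 99.0% in kidney, 99.9% in liver and 99.9% in spleen, and it was muscle, at 0.0916%, that stood alone. Hk1, a hexokinase, took 95.5% in brain and 97.0% in kidney, and Ldhb 78.2% and 82.2%. Eef1a2, an elongation factor of neurons and muscle, took 37.0% in brain and 93.0% in muscle. The pair Camk2a and Camk2b took 86.3% of its set in brain and 60.3% in muscle.

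**Figure D5:**
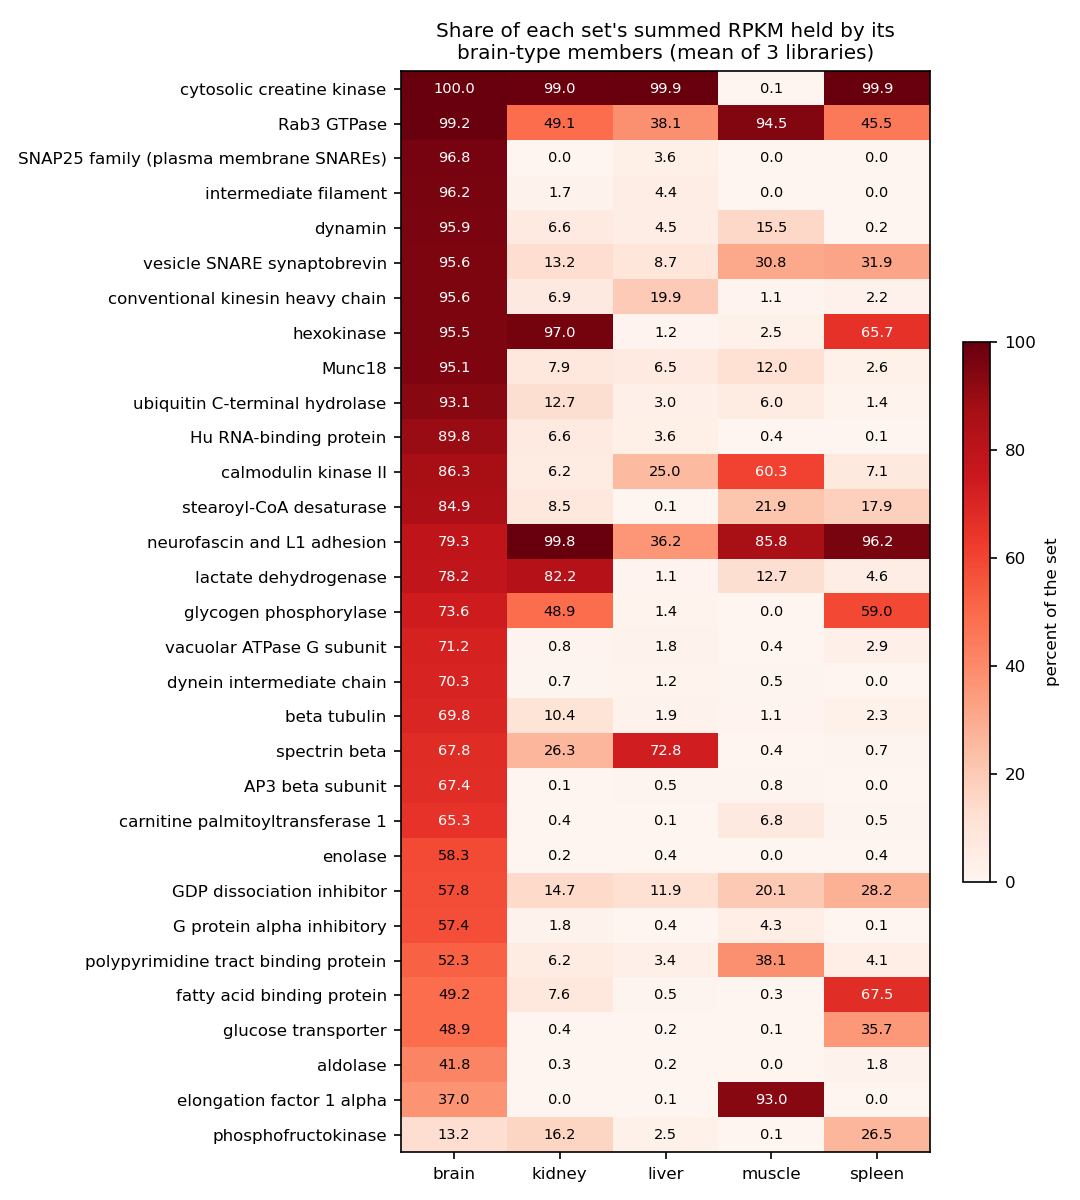
Share of each gene set's summed RPKM (percent, colour scale) that came from the member or members named as the brain type, as means of 3 libraries in each of the 5 tissues. Snap25 (96.8%), the Kif5a and Kif5c pair (95.6%) and Cpt1c (65.3%) are high in brain alone, while Ckb and Hk1 are as high in kidney as in brain.

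The depleted set was led by genes that the 4 other organs shared. Gimap4, a GTPase of lymphocytes and of some endothelium, lies on chromosome 6 (GRCm38, 48684549 to 48692060) and measured 0.181, 0.159 and 0.173 CPM in brain. The 12 other libraries ran from 10.3 to 339 CPM with a median of 25.4, and muscle was lowest. Gimap4 was 77.1-fold below muscle (log2 fold change -7.85 ± 0.28, adjusted p = 3.5e-12). Plbd1, a phospholipase of myeloid cells, was 73.7-fold below kidney. Cd36, the fatty acid receptor of capillaries, fat and macrophages, measured 1.46, 0.926 and 1.28 CPM in brain and between 58.7 and 512 CPM elsewhere, 70.9-fold below spleen (-6.97 ± 0.39, adjusted p = 4.56e-10). Brain stood far below the lowest library in each of these genes.

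Other genes named for their fold or level had varied roles. Aqp1, the water channel of red cells, kidney tubules and peripheral capillaries, measured 3.8, 5.49 and 3.96 CPM in brain. The 12 others ran from 101 to 859 CPM and did not overlap with brain, and brain was 40.6-fold below liver. The solute carriers Slc43a3 and Slc16a10 were 34.3-fold and 26.2-fold below kidney. Txnip, a glucose-responsive inhibitor of thioredoxin and of glucose uptake, measured 12.6, 18.1 and 13.5 CPM and 78.6 CPM or more elsewhere, 14.6-fold below liver. C3, the central complement protein, measured 1.92, 1.91 and 1.77 CPM in brain and was 13-fold below muscle, while liver reached 16843 CPM in its highest library. Clec2d and Ifi203 were 14.6-fold and 14.5-fold below their lowest tissues. Msrb1, a methionine sulfoxide reductase, and Rps27l, a ribosomal protein relative, were 5.14-fold and 6.15-fold below spleen. Msrb1 lost its call without spleen replicate 1.

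Antigen presentation had the largest depleted share of the lists examined. Of 22 MHC class I and II genes and their helpers, 11 were depleted and all 22 were lower in brain (median log2 fold change -4.22). H2-Ab1, a class II chain, measured 1.35, 1.34 and 2.1 CPM in brain and between 12.9 and 1447 CPM elsewhere, 12.6-fold below muscle (-6.16 ± 0.38, adjusted p = 1.25e-09). H2-Q4 was 11.9-fold below its lowest tissue. The class I genes H2-K1 (20.6, 21.4 and 15.9 CPM) and H2-D1 (28.7, 28.4 and 25.4 CPM) were 6.3-fold and 5.97-fold below muscle. H2 genes resemble each other closely, so the split of reads between members is uncertain. B2m, the shared class I light chain, was lower in brain but only 2.12-fold below muscle, at 52.5, 53.9 and 54.1 CPM, and was not depleted. The sum over the list was 199.8 to 207 CPM in brain, below the 520 to 796 CPM of muscle, the lowest of the other tissues. With total-count scaling 4 of the 22 were depleted and 20 lower in brain.

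Interferon-response genes were lower in brain in 26 of 26 cases (median -2.98), with 7 depleted. Irf7, a regulator of the interferon response, measured 1.4, 1.54 and 1.22 CPM in brain and 4.61 to 122 CPM elsewhere (-4.51 ± 0.28, adjusted p = 1.36e-09), and it lost its depleted call without muscle replicate 1. Ifitm3, a membrane protein that blocks virus entry, measured 5.54, 5.69 and 6.46 CPM and was 7.37-fold below muscle. Of 10 guanylate-binding proteins 5 were depleted, again with similar members. With total-count scaling 0 of the 26 were depleted and 25 lower in brain.

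Leukocyte markers were also mostly lower than the mean of the other tissues. Of 20 pan-leukocyte genes 18 were lower in brain, 1 was higher (Coro1a) and 0 were depleted, and the list summed to 160 to 172.5 CPM in brain, 26.0 to 41.7 CPM in muscle, 176 to 183 CPM in kidney, 356 to 484 CPM in liver and 6846 to 8112.5 CPM in spleen. With spleen left out of the comparison 10 of the 20 were lower and 7 higher. Brain was above muscle in summed leukocyte markers while below it in summed MHC genes. Of 14 B and T lymphocyte genes 13 were lower and 4 depleted, among them Cd2, Cd3e and Ms4a1. The number depleted was 1 with total-count scaling, 2 with brain fitted with each tissue alone and 9 with muscle left out. The list had sums of 13 to 14.5 CPM in brain, most of it Cd4 at 10.9, 10.9 and 9.11 CPM. Cd3d had 0 counts in the 3 brain libraries. The part of leukocyte number in the lower MHC and interferon genes was not tested.

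Genes of cell death were also low. Of 20 genes of apoptosis and the inflammasome, 18 were lower in brain, 0 higher and 4 depleted (median -2.17). With total-count scaling 2 were depleted, and with muscle left out 8. The 4 were Fas, a death receptor, Ripk3 and Mlkl, the kinase and the pore-forming executor of necroptosis, and Casp4, an inflammatory caspase. Mlkl measured 0.147, 0.0498 and 0.0864 CPM in brain and 0.863 to 10.7 CPM elsewhere. Bcl2l1, which encodes the survival protein Bcl-xL, did not pass the test at 76.2, 93.3 and 77.3 CPM.

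Peripheral vessel and connective tissue genes gave a mixed picture. Of 21 genes of peripheral endothelium and lymphatics 13 were lower and 4 depleted: Cd36, Stab2, Ccl21a and Gpihbp1, the last an anchor for lipoprotein lipase on capillaries. Fabp4, a fatty acid carrier of fat cells and capillaries, measured 0.136, 0.0597 and 0.158 CPM in brain and was 27.9-fold below spleen. Of 24 fibroblast matrix genes 13 were lower, 3 higher and 1 depleted (Col14a1), and the balance moved with the setting: 7 lower and 8 higher with total-count scaling, 7 lower and 10 higher with muscle left out, and 23 lower, 0 higher and 4 depleted with spleen left out. Basement membrane genes were split, with 10 of 22 higher and 9 lower, near the 39.5% and 33.7% of all genes tested. With spleen left out 5 were higher and 15 lower.

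Hox genes, which set position along the trunk and hindbrain, were almost silent in brain. Summed over the 39 genes, brain held 0.159 to 0.956 CPM, liver 4.58 to 5.87 CPM, spleen 5.066 to 7.195 CPM, muscle 345 to 430 CPM and kidney 583 to 599 CPM, so liver and spleen were also low. The highest brain sum was in replicate 2. Of 32 tested, 18 were lower in brain and 3 were depleted: Hoxb4, at 0.0113, 0.0996 and 0.0144 CPM in brain and 0.793 to 21.3 CPM elsewhere, Hoxa5 and Hoxa3. By limma-voom 32 of the 32 were lower, and by DESeq2 30.

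Genes for burning fat were low in brain. Of 35 genes of fatty acid oxidation and ketone use, 30 were lower in brain (median -2.40). Acadm, the medium-chain acyl-CoA dehydrogenase, measured 29, 27.8 and 29 CPM in brain and 1516, 634 and 503 CPM as means in kidney, liver and muscle, and spleen, at 40 CPM, kept it out of the depleted set. Ehhadh, a peroxisomal enzyme, measured 2.68, 2.4 and 2.95 CPM and 715 and 805 CPM in kidney and liver. With spleen left out of the comparison 20 of the 35 would be depleted. The exceptions were Cpt1c, at 59.5, 68.6 and 61.6 CPM and 40.3-fold above muscle, and Oxct1, which lets cells burn ketone bodies and was higher in brain (258, 267 and 266 CPM, log2 fold change 0.97 ± 0.10, adjusted p = 2.68e-07). Cpt1b, the muscle form of carnitine transferase, was depleted, but this call was lost without liver replicate 3.

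Genes for the breakdown of branched-chain amino acids were lower than the mean of the other tissues in 19 of 20 cases (median -1.56). Spleen was lower still, with a summed level of 357 to 370.4 CPM beside 671 to 674.5 CPM in brain, and with spleen left out 9 were depleted. The first step showed an exchange of forms: the cytosolic transaminase Bcat1 was enriched, at 79.8, 86.7 and 74.7 CPM, and the mitochondrial Bcat2 depleted, at 8.82, 10.2 and 7.95 CPM beside 40.1 CPM or more elsewhere. By count of genes glycolysis was not lower, with 13 of 25 higher and 10 lower, beside 39.5% and 33.7% of all genes tested. By sum it was lower than in most tissues. The list held 8538 to 9665 CPM in brain, 10044 to 12359 CPM in kidney and 11687 to 15404 CPM in liver. Muscle held 98751 CPM or more, and spleen 1858 to 2458 CPM. The list had few enriched members. These were Aldoc (861, 823 and 913 CPM, 40.5-fold above kidney) and Eno2 (703, 809 and 762 CPM). Among 27 cholesterol genes 10 were higher and 7 lower, against the same 39.5% and 33.7% of all genes tested. The counts were 18 and 2 with total-count scaling, 23 and 1 with liver left out, and 6 and 13 with muscle left out. The 2 enriched ones were Scd2 and Cyp46a1. Scd2, a fatty acid desaturase, stood at 1350, 1331 and 1369 CPM and was 14.6-fold above kidney. Cyp46a1, which clears cholesterol from neurons, stood at 160, 176 and 156 CPM and was 40.4-fold above liver.

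The 3 brain libraries agreed closely with each other on most enriched genes. Over 1624 enriched genes with a brain mean of at least 5 CPM, the median ratio of the highest to the lowest brain library was 1.18, the 95th percentile was 1.66, and 40 genes had a ratio over 2. Of those 40, 31 were highest in replicate 3, and their median genomic span was 266 kb, compared with 39.1 kb for all 1624. Dok6 measured 2.93, 1.79 and 10.9 CPM, Arfgef3 18.9, 12.2 and 54.7 CPM, Xkr4 8.25, 5.5 and 23.9 CPM and Stxbp5l 13.6, 9.69 and 33.6 CPM. Zkscan16, a zinc finger gene, followed at 15.1, 8.83 and 29.5 CPM. Across 11081 genes at 5 CPM or more, the Spearman correlation of a gene's deviation from the brain mean with its span was -0.32 in replicate 2 and 0.30 in replicate 3, given as a description over genes that share a library. Fzd3, at 6.19, 4.55 and 18.4 CPM, lost its enriched call without replicate 3, as did Gabbr2, a GABA-B subunit that liver held at 51.2 CPM, whose call was also lost without liver replicate 1. Liver replicate 3 and brain replicate 3 were also both left out, an alternative added after the data were seen, which gave 2557 enriched and 322 depleted genes.

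Replicate 2 was high in other genes. The pituitary hormone genes Prl (0.102, 11.4 and 0.216 CPM), Gh (0.0226, 6.22 and 0.202 CPM) and Pomc (2.66, 9.95 and 1.31 CPM) were highest there, as were the activity-regulated genes Egr4 (20.8, 37.7 and 15.2 CPM), Fosb (5.41, 21.9 and 6.54 CPM) and Egr1 (186, 297 and 170 CPM). Genes of brainstem neurons, the serotonin and glycine transporters Slc6a4 (0.0793, 1.4 and 0.158 CPM) and Slc6a5 (0.249, 1.04 and 0.187 CPM), were also highest in replicate 2. The enriched calls of Prl, Pomc, Fosb and Slc6a5 were lost without replicate 2, and that of Prl also without any 1 of the liver libraries or without muscle replicate 1 or 3. The part of pituitary or brainstem tissue in these differences was not tested. Slc6a3, the dopamine transporter of the midbrain, was low in replicate 3 instead, at 10.8, 10.1 and 2.97 CPM.

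Defining genes of the other organs were low in the brain libraries. A list of 12 skeletal muscle genes summed to 21.9 to 28.5 CPM in brain, and most of this was Ryr1 (13.9, 17 and 9.6 CPM), a calcium channel that neurons also use. A list of 12 kidney tubule genes summed to 8.1 to 11 CPM, led by Slc22a6, with Kap and Umod at 0 counts. Of 12 hepatocyte genes Ttr gave nearly all of the sum, and Alb measured 5.59, 4.72 and 6.41 CPM beside 202310 CPM in liver. Hemoglobin and other erythroid genes summed to 161 to 261 CPM in brain, and 8 of 9 were lower than the mean of the other tissues, but 0 were depleted and the muscle sums of 192.5 to 483 CPM overlapped with those of brain.

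Of the genes named above, those whose exons overlap another annotated gene, and whose values are uncertain for that reason, were Hs3st4, Nlgn1, Fam155a, Gabra5, Epha10, Hpca, Grin2b, Gria2, Syn3, Sptbn4, Grin3b, Kcnq1, Cacna1s, Pmch, Bdnf, Glul, Slc1a2, Aldh1l1, Cnp, Trf, Pdgfra, P2ry12, Ttr, Dlx1, Emx2, Zic1, Cntnap1, Zfp36, Cpt1c, Uchl1, Hk1, Txnip, Ifi203, H2-Q4, Irf7, Coro1a, Stab2, Hoxa3, Oxct1, Cpt1b, Bcat1, Bcat2, Scd2, Ryr1 and Umod.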

How the data were processed

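RNA was extracted with TRIzol and treated with TURBO DNase, per the labels' protocols. The deposited values are whole-number fragment counts per gene. Per the file headers, the counting program was featureCounts 1.5.0-p3, run over exons of the Ensembl 86 annotation of GRCm38, with no strand option and with fragments shared by overlapping genes left uncounted. STAR is named in the submitters' processing notes, and its version is not given in the sources used here. The exon length deposited beside the counts served for RPKM.

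The 15 wild-type libraries were fitted together in edgeR 4.0.16 (R 4.3.3) with filterByExpr, TMM scaling, 1 mean per tissue and the quasi-likelihood test, and p-values were adjusted over all 22933 genes tested. Brain was contrasted with each of the 4 tissues and with their mean. Gene-level precision rests on 49819907 to 103746605 counts a library, and the common biological coefficient of variation was 0.232. No pair of replicates agreed within counting noise (chi-square per degree of freedom 20 to 640). On simulated data of 21800 genes, 100 of 100 genes raised by 8-fold and 100 of 100 lowered by 8-fold were called. That change was above the rule's minimum of 4-fold, so recovery of these genes was to be foreseen. The simulation checks that the steps run and does not measure sensitivity in the real libraries.

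Genes were named by rule: the 12 enriched genes of highest RPKM, the 12 enriched and 12 depleted genes of largest fold, the 8 depleted genes of highest level elsewhere, the 8 enriched genes least even among brain libraries, and leading members and exceptions of each list, family and paralogue set. Further members of the lists and families, such as Hcrt, Avp, Th, Mlkl and Cd3d, the genes whose promoters are printed, and Gh and Egr1 lie outside the rule and were chosen after their values were seen. Some genes that the rule names are not reported here. The members and lists were chosen with earlier results of these data known. Alternatives were DESeq2 1.42.0, limma-voom (limma 3.58.1), other scalings, filters and fold minimums, each library or tissue left out, a replicate block, overlapping genes left out, and the heterozygous libraries.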

Additional observations from a re-analysis of the deposited data

How the results depend on the processing

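The number of enriched genes stayed within 1.5 times the reported 2551 under the alternatives run, from 1784 with overlapping genes left out, where fewer genes were tested, and 1809 at a minimum of 8-fold to 3748 at 2-fold. The 319 depleted genes depended on the definition and the scaling: 1102 at 2-fold, 98 at 8-fold, 112 with total-count scaling, 784 with muscle left out and 731 with spleen left out. Total-count scaling also lowered the genes lower in brain from 7728 to 4925. The enriched genes' share of brain counts was 26.9%, and it was 23.9% with DESeq2's genes, 31.1% with total counts and 27.5% in the heterozygous libraries. Leaving out 1 library at a time gave 2522 to 2579 enriched genes, 305 to 334 depleted genes, 15795 to 17188 differing genes and a share of 26.6% to 27.2%. DESeq2 gave no adjusted p for 80 genes, of which 61 were brain-enriched in edgeR, 60 of them with a brain mean of at least 50 CPM. Those 80 genes enter neither the 23.9% nor the calls counted as lost with DESeq2. Calls were followed in 596 called genes, which include members of lists, families and paralogue sets that are not named above. Of these, 37 lost their call with total-count scaling, most of them depleted immune genes. The number was 5 with DESeq2's size factors, and 13 of 565 with DESeq2. In the heterozygous libraries 19 were lost and 2 depleted genes reversed, Krt7 at 0.833 and Cyp2e1 at 2.47 (log2 of brain over the lowest other tissue). The cause was not tested.

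A replicate block gave 2551 enriched, 320 depleted and 16814 differing genes and ended none of the 596 calls followed. Same-numbered libraries of brain and another tissue deviated together only weakly, with correlations from -0.115 to 0.193 and 5 of 12 above 0.1. Over all tissues, 30 same-numbered pairs had a median correlation of 0.081, with 14 above 0.1. The 60 pairs of different number had a median of -0.044, with 10 above 0.1. These values do not settle whether the libraries are paired by mouse, and the numbers were not taken to pair them. Depth limits genes under 3 counts in a tissue, whose folds are lower bounds.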
